A study of Homo sapiens with 24 samples.

Results

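RNA bound to AGO2 was compared with total RNA in LNCaP cells that had been given miR-205. LNCaP is an established human prostate cancer line of luminal character that responds to androgen. The arrays were taken by their titles: 3 arrays of AGO2-bound RNA and 3 arrays of total RNA after miR-205 reconstitution, 6 of the 24 arrays of the series. The other arrays hold the same pair of RNA kinds after transfection with miR-130a, miR-203 or a scramble sequence, again 3 of each kind. In all 8 groups the cells were nucleofected, a form of electroporation, with 2.5 µg of plasmid. AGO2-bound RNA was then obtained by co-immunoprecipitation with an antibody against AGO2, and each array received 2 µg of RNA. The microRNA came from a plasmid in a line to which it was being returned, and its own level is not analysed here. The labels speak of biological replicates 1 to 3 but name no separate cultures, so a p-value here speaks only for the spread among the arrays at hand.

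AGO2 is an Argonaute protein: it holds a microRNA and uses it as a guide to pair with messenger RNAs, most often through the bases near the 5′ end of the microRNA, the seed. Transcripts held by AGO2 are repressed in translation or shortened at their poly(A) tail and degraded, with the help of the TNRC6 proteins and the CCR4-NOT deadenylase complex. The AGO2-bound fraction of a cell therefore holds targets of the microRNAs it already makes beside those of one that is added. miR-205 is known from normal prostate epithelium, where it is made mainly by basal cells, and is often low in prostate cancer.

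The mature sequences below are shown because they set which transcripts AGO2 can be guided to. They were taken from RefSeq (GRCh38.p14), with the seed, bases 2 to 8, in capitals. The first is the microRNA that was added, from chr1:209432166-209432187 on the plus strand. The let-7 and miR-17 families are common in human epithelial cells, and their known targets are set beside those of miR-205 further on.
miR-205-5p: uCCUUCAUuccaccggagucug
let-7a-5p: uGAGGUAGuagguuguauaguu
let-7g-5p: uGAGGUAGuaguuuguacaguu
miR-17-5p: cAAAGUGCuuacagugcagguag
miR-93-5p: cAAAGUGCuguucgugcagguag
miR-203a-3p: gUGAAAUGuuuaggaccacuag

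The let-7 members share the seed GAGGUAG and the miR-17 members share AAAGUGC, whereas the seeds of miR-205-5p and miR-203a-3p differ from these and from each other. An RNA that pairs with all bases of the miR-205 seed holds AUGAAGG, and one that pairs with the let-7 seed holds CUACCUC.

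The values are log2 levels per probe set, on a scale the authors had already set so that arrays of one run have nearly the same distribution. All 12 arrays of miR-205 and scramble ended at one lowest value, 2.35, and so appear to share a normalization run. Differences are therefore relative to the rest of each RNA kind, and say nothing of how much RNA AGO2 held. As in any bulk extract, fewer cells with a transcript and less of it per cell cannot be told apart. Within the 3 AGO2-bound arrays the median SD of a gene was 0.214, against 0.117 within the 3 total RNA arrays.

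The 2 kinds of RNA also differed on the control probe sets. The mean of the probe sets for 18S ribosomal RNA was 7.77, 7.35 and 7.89 on the AGO2-bound arrays, against 3.45, 3.67 and 3.61 on the total RNA arrays. The mean of 24 probe sets for spiked bacterial poly(A) RNAs was 5.15, 5.89 and 7.60 in AGO2-bound RNA, against 4.12, 4.12 and 4.16 in total RNA, so AGO2-bound replicate 3 stood apart. The 3 prime minus 5 prime difference of ACTB was 3.94, 3.20 and 3.21 in AGO2-bound RNA, against 2.13, 2.03 and 2.15 in total RNA, and that of GAPDH was 1.38, 1.54 and 1.72, against 0.81, 0.80 and 0.80. These values moved with the RNA kind on every array, and their part in the differences given here was not tested. The counts of genes called after miR-205, over all genes and by list, were recomputed without each miR-205 array in turn. Arrays are named where that matters. Further on, the same is given for the overall counts of the comparisons with other transfections. Other counts, such as those at 2-fold or those shared with scramble, were not recomputed in this way. Without AGO2-bound replicate 3, the counts over all genes given next were 2422 higher and 2340 lower.

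The cells carried the marks of luminal prostate cells. All 9 luminal markers on the array were above the filter, and KLK3, which encodes prostate-specific antigen, read 13.60, 13.37 and 13.17 in AGO2-bound RNA, against 12.27, 12.26 and 12.11 in total RNA. Of the 9, 4 were higher in AGO2-bound RNA and 5 lower, among them HOXB13 at -2.12 and EPCAM at -1.73. Of the markers of other cells, 4 of 6 for basal prostate, 4 of 6 for the PC-3 and Du-145 type, 4 of 4 for leukocytes and 3 of 5 for fibroblasts lay within 0.05 of the lowest value on all 6 arrays. The keratins KRT5 and KRT14, which define basal cells, were among them, and so was PTPRC of leukocytes. Of the other 6, COL1A1 passed the filter, with 4.29, 4.53 and 4.32 in AGO2-bound RNA, against 3.95, 4.12 and 3.37 in total RNA.

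AGO2-bound RNA differed from total RNA at most genes. Of 6782 genes tested with limma at a Benjamini-Hochberg adjusted p under 0.05, 2483 were higher in AGO2-bound RNA (36.6%) and 2445 lower (36.1%). At 1461 genes the level was at least 2-fold higher (21.5%), and at 1180 at least 2-fold lower (17.4%). Large differences lay mostly on the higher side: 574 genes were at least 4-fold higher and 195 at least 4-fold lower, and for 16-fold the counts were 45 and 3. The median difference over all genes was -0.009 on the log2 scale, the 10th percentile was -1.35 and the 90th was 1.85. With each array centred on its own median the median difference was -0.181, so differences of that size have no settled direction. All 3 AGO2-bound arrays lay on one side of all 3 total RNA arrays at 5124 genes (75.6%).

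Genes of all levels took part. In the fifth of genes with the lowest mean, 30.7% were higher and 25.4% lower, and in the fifth with the highest mean, 34.8% were higher and 44.4% lower. Of 1173 further probe sets of genes called at 2-fold, 1046 (89.2%) pointed the same way as the probe set used, and 27 pointed the other way by at least 2-fold.

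**Figure D1:**
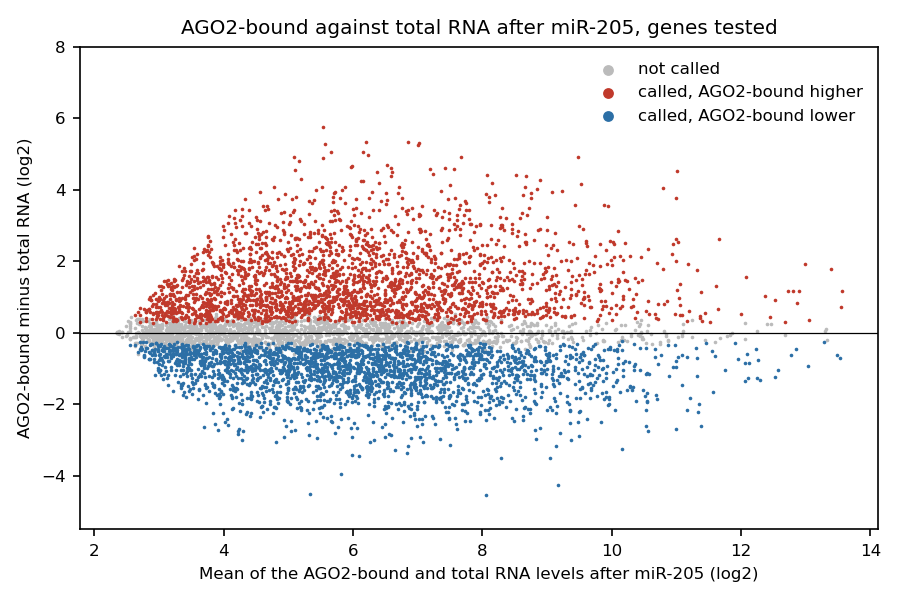
The difference between AGO2-bound and total RNA after miR-205 (vertical axis, log2) is plotted for each of the 6782 genes against the mean of both levels (horizontal axis, log2). Red and blue points passed the test, grey points did not; the cloud reaches farther above 0 than below it, with 45 genes at least 16-fold higher and 3 at least 16-fold lower in AGO2-bound RNA.

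Among the 10 largest differences on the higher side were transcripts of regulators of signalling, transcription and ubiquitin. MEX3D, an RNA-binding protein with a RING domain, read 8.62, 8.15 and 8.48 in AGO2-bound RNA, against 2.63, 2.72 and 2.58 in total RNA. The log2 difference was 5.77 ± 0.15 (SE, adjusted p = 1.6e-19), but its total RNA level lay below the filter value of 2.85, so its size is uncertain, and its second probe set lay below the filter. SMAD7, an inhibitor of TGF-beta signalling, read 8.36, 8.99 and 9.30 in AGO2-bound RNA, against 3.97, 3.00 and 3.62 in total RNA. The difference was 5.35 ± 0.24 (SE, adjusted p = 9.5e-16), and the arrays of each kind were spread over less than 1 log2 unit.

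PCTP, a carrier of phosphatidylcholine, read 9.47, 9.40 and 9.69 in AGO2-bound RNA, against 3.99, 4.51 and 4.04 in total RNA, a difference of 5.34 ± 0.14 (SE, adjusted p = 1.6e-19). DUSP2, a phosphatase that acts on MAP kinases, read 9.08, 9.53 and 10.40 in AGO2-bound RNA, against 4.51, 4.18 and 4.39 in total RNA, a difference of 5.31 ± 0.23 (SE, adjusted p = 5.7e-16). USP25, an enzyme that removes ubiquitin, read 9.40, 9.61 and 9.91 in AGO2-bound RNA, against 4.11, 4.69 and 4.33 in total RNA, a difference of 5.27 ± 0.20 (SE, adjusted p = 9.1e-17). All AGO2-bound arrays of these 3 genes lay above 9, and all total RNA arrays lay below 5.

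The other 5 of the 10 were transcription regulators: the zinc finger genes ZNF281 (5.28 ± 0.21), ZNF184 (5.06 ± 0.18) and ZNF267 (4.97 ± 0.24), SERTAD3 (5.07 ± 0.15) and the DNA-binding protein ARID3A (4.93 ± 0.21). The mean of ARID3A in total RNA also lay below the filter value. MKNK2, a kinase of the cap-binding protein eIF4E, had one of the 3 smallest p-values, with MEX3D and PCTP. It read 13.33, 13.17 and 13.31 in AGO2-bound RNA, against 8.74, 8.60 and 8.92 in total RNA, a difference of 4.51 ± 0.12 (SE, adjusted p = 1.6e-19).

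The largest differences on the lower side included enzymes and chaperones. EPHX1, the microsomal epoxide hydrolase, read 5.79, 6.02 and 5.53 in AGO2-bound RNA, against 10.41, 10.28 and 10.29 in total RNA. Its log2 difference, AGO2-bound minus total, was -4.55 ± 0.18 (SE, adjusted p = 1.3e-16), the lowest of all tested genes. EEF1A2, an elongation factor of translation, read 6.75, 7.34 and 7.01 in AGO2-bound RNA, against 11.37, 11.27 and 11.30 in total RNA, a difference of -4.28 ± 0.16 (SE, adjusted p = 4.1e-17). The zinc finger gene ZNF652 went the opposite way to ZNF184, with 3.07, 2.94 and 3.23 in AGO2-bound RNA, against 7.70, 7.49 and 7.62 in total RNA, a difference of -4.53 ± 0.15 (SE, adjusted p = 9.0e-18).

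STIP1, a co-chaperone that links HSP70 to HSP90, read 3.40, 4.25 and 3.85 in AGO2-bound RNA, against 7.83, 7.72 and 7.81 in total RNA, a difference of -3.95 ± 0.18 (SE, adjusted p = 2.0e-15), and its second probe set gave -4.37. The glycolytic enzymes PKM and ENO1 differed by -3.52 ± 0.19 and -3.50 ± 0.18, with -4.94 for a second probe set of ENO1. NAPA, which takes apart SNARE complexes, differed by -3.46 ± 0.19, the folate receptor FOLR1 by -3.42 ± 0.23, the membrane protein BSG by -3.37 ± 0.16 and BANF1, a chromatin-bridging protein of the nuclear envelope, by -3.28 ± 0.13. BANF1 read 5.02, 4.98 and 5.01 in AGO2-bound RNA, against 8.21, 8.33 and 8.31 in total RNA.

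**Figure D2:**
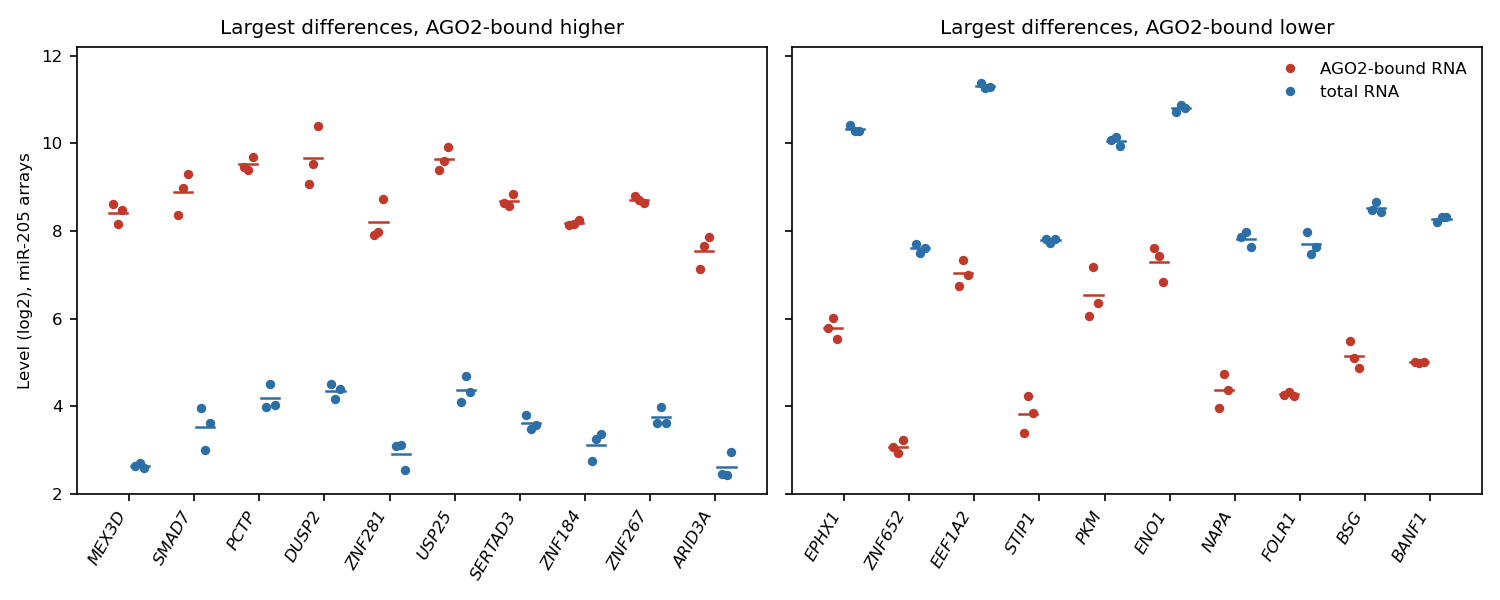
Levels on each of the 6 arrays after miR-205 (log2, vertical axis) for the 10 genes with the largest difference in each direction, AGO2-bound RNA in red to the left and total RNA in blue to the right of each gene; each point is an array and the bar is the mean. The 20 genes were chosen among those whose arrays of both kinds do not overlap, which held for 75.6% of all genes tested.

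For a few called genes one kind of RNA lay at the lowest value on all 3 arrays, which gives only a bound. SLC2A3, a glucose transporter, was at least 5.17-fold higher in AGO2-bound RNA (4.72, 4.47 and 4.98 in AGO2-bound RNA, against 2.35, 2.35 and 2.36 in total RNA). The signalling inhibitors SOCS1 and SPRY4 were at least 2.73-fold and 2.7-fold higher, the chromatin remodelling subunit MTA2 at least 2.48-fold and the receptor kinase EPHA2 at least 2.01-fold. In the other direction TMEM259 was at least 6.24-fold lower in AGO2-bound RNA (2.38, 2.39 and 2.35 in AGO2-bound RNA, against 5.19, 4.90 and 4.96 in total RNA), the kinase MAP3K2 at least 2.27-fold lower and the antiviral enzyme OAS1 at least 1.27-fold lower. The OAS1 call rests on few arrays: without total RNA replicate 3 its difference was -0.15 (adjusted p = 0.36), and it was lost without any of the AGO2-bound arrays too (adjusted p = 0.067 to 0.076).

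Known targets of let-7, a family with the seed GAGGUAG, were higher in AGO2-bound RNA at 11 of 13 tested members, and none was lower. Their median difference was 3.14, against -0.009 for all genes, and the list median of single AGO2-bound arrays over the mean of total RNA was 3.02, 2.65 and 3.08. CDC34, a ubiquitin-conjugating enzyme of the cell cycle, read 9.69, 9.55 and 9.43 in AGO2-bound RNA, against 5.26, 5.64 and 5.40 in total RNA, a difference of 4.12 ± 0.15 (SE, adjusted p = 2.0e-17). PBX3, a homeodomain transcription factor, read 7.40, 6.92 and 7.44 in AGO2-bound RNA, against 3.60, 3.63 and 3.38 in total RNA, a difference of 3.71 ± 0.14. E2F5, a transcription factor that is also among the miR-205 targets, read 8.45, 8.26 and 8.48 in AGO2-bound RNA, against 4.61, 4.58 and 4.81 in total RNA, a difference of 3.73 ± 0.15. The arrays of both kinds of RNA did not overlap at these genes, as at 75.6% of all genes tested.

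Further let-7 targets that were higher were THBS1, a matrix protein, at 3.44 ± 0.34, cyclin D1 (CCND1) at 3.24 ± 0.14, ARID3B at 3.16 ± 0.25, the nuclease DNA2 at 3.14 ± 0.28, the phosphatase CDC25A at 2.64 ± 0.21 and the death receptor FAS at 1.81 ± 0.17. The other probe set of CDC25A gave 0.58. DICER1 (0.21 ± 0.21) and HMGA1 (0.21 ± 0.15) were not called. The remaining 4 on the array, HMGA2, CCND2, CDK6 and TGFBR1, lay within 0.06 of the lowest value on all 6 arrays and were not tested. After scramble 12 of the 13 were higher, with a median of 3.26. Averaging all probe sets of a gene gave a median of 1.74 after miR-205.

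Targets of the miR-17 family were higher at 8 of 11 tested members and lower at 2, with a median of 1.22; after scramble the median was 0.94. Besides SMAD7, TXNIP, which binds thioredoxin, read 11.16, 10.92 and 11.58 in AGO2-bound RNA, against 7.23, 7.38 and 7.15 in total RNA, a difference of 3.97 ± 0.17 (SE, adjusted p = 6.2e-16), and its other probe sets gave 2.51 and 1.27. TNFAIP1, an adaptor of a ubiquitin ligase, was 2.31 ± 0.12 higher, with 0.49 for its other probe set. RBL1 was 1.92 ± 0.25 higher, the kinase MAP3K5 1.37 ± 0.24 and the cell cycle inhibitor CDKN1A 1.22 ± 0.16. RBL2, which like RBL1 belongs to the retinoblastoma family, was lower, at -0.80 ± 0.16, and so was MAPK9, at -0.49 ± 0.15. With the stricter filter, a mean of at least 4, fewer genes were tested. Higher were then 5 members of the miR-17 list, and 2098 of all genes, against 2483.

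Known targets of miR-205 itself did not stand out by their median. Of 24 listed, 21 were on the array and 14 were tested: 6 were higher in AGO2-bound RNA, 4 lower and 4 not called. Their median difference was 0.11, which is within the shift that centring the arrays makes. At least 2-fold higher were 6 of the 14 and at least 2-fold lower 0, against 21.5% and 17.4% of all genes. LYN, a tyrosine kinase of the SRC family, read 7.12, 7.07 and 6.94 in AGO2-bound RNA, against 3.94, 4.05 and 4.05 in total RNA, a difference of 3.03 ± 0.15 (SE, adjusted p = 5.6e-15), with 3.37 and 3.51 for its other probe sets. After scramble its difference was 0.31, and the excess after miR-205 over scramble was 2.72 ± 0.21 (SE, adjusted p = 1.3e-10). VEGFA, the growth factor of blood vessels, read 9.40, 9.64 and 9.85 in AGO2-bound RNA, against 7.50, 7.67 and 7.84 in total RNA, a difference of 1.96 ± 0.14 (SE, adjusted p = 7.7e-12). Its excess over scramble was 1.80 ± 0.20 (SE, adjusted p = 7.3e-08), but its other probe sets gave 0.51, 0.59 and -0.14 after miR-205.

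SMAD1, a transducer of BMP signalling, read 8.43, 8.61 and 8.07 in AGO2-bound RNA, against 5.80, 5.88 and 6.06 in total RNA, a difference of 2.46 ± 0.22 (SE, adjusted p = 4.1e-10) and an excess over scramble of 1.18 ± 0.31 (SE, adjusted p = 0.0035). ERBB3, a receptor that carries signals with ERBB2, read 8.77, 9.14 and 9.42 in AGO2-bound RNA, against 7.34, 7.40 and 7.50 in total RNA, a difference of 1.70 ± 0.16 (SE, adjusted p = 7.4e-10). After scramble the ERBB3 difference was 1.08, and the excess over scramble was 0.62 ± 0.22 (SE, adjusted p = 0.026). That call was lost without AGO2-bound miR-205 replicate 2 or 3, total RNA miR-205 replicate 1, AGO2-bound scramble replicate 1 or total RNA scramble replicate 2 (excess 0.47 to 0.61, adjusted p = 0.051 to 0.085). E2F5 was 3.73 ± 0.15 higher and the AKT phosphatase PHLPP2 1.68 ± 0.20, and after scramble the differences were 4.25 and 2.05.

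On the lower side were YES1, another SRC family kinase (-0.94 ± 0.16, with -1.89 for a second probe set), the receptor NOTCH2 (-0.84 ± 0.19), SMAD4, the partner of the receptor-regulated SMADs (-0.41 ± 0.16) and MED1, a Mediator subunit (-0.36 ± 0.15, with 0.20 for a second probe set). YES1 read 7.19, 6.73 and 7.06 in AGO2-bound RNA, against 7.80, 7.99 and 8.01 in total RNA, and its excess over scramble was -1.02 ± 0.22 (SE, adjusted p = 0.00057). The SMAD4 and MED1 calls do not hold for all arrays: without AGO2-bound replicate 1 or 2 or total RNA replicate 1, SMAD4 had adjusted p = 0.052 to 0.058, and without any of 5 arrays, all but AGO2-bound replicate 3, MED1 had adjusted p = 0.051 to 0.13. MED1 was 2.11 higher in AGO2-bound RNA after scramble, which gives an excess after miR-205 of -2.47 ± 0.21 (SE, adjusted p = 1.1e-09).

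Of the members below the filter, INPPL1, a phosphoinositide phosphatase, read 3.32, 3.91 and 3.37 in AGO2-bound RNA, against 2.40, 2.55 and 2.41 in total RNA. It was not tested. The repressors ZEB1 and ZEB2, the best known miR-205 targets in epithelial cells, lay within 0.05 of the lowest value on all 6 arrays, as did PRKCE, IL24 and IL32. Over the list, 6 members had an excess over scramble above 0 and 4 below 0 that passed the test. For all genes that test called 1430 higher (21.1%) and 1470 lower (21.7%).

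Genes of the microRNA machinery were near the shares of all genes, 36.6% higher and 36.1% lower. Of 14 tested, 6 were higher and 5 lower, with a median of 0.06. TARBP2, a partner of DICER1, was 2.04 ± 0.20 higher, the Argonaute gene AGO1 0.90 ± 0.16 and EIF4E2, a cap-binding repressor, 1.41 ± 0.13. The other probe sets of EIF4E2 gave 0.93 and 0.10. FXR1, a relative of the fragile X protein, read 8.91, 8.69 and 9.21 in AGO2-bound RNA, against 5.78, 5.53 and 5.62 in total RNA, a difference of 3.29 ± 0.17 (SE, adjusted p = 2.0e-14), but its other probe sets gave -0.41 and 0.62. PRKRA, also a partner of DICER1, was lower, with 4.29, 3.86 and 4.21 in AGO2-bound RNA, against 6.32, 6.11 and 6.39 in total RNA, a difference of -2.15 ± 0.18 (SE, adjusted p = 9.4e-11). TNRC6B and AGO3 were -0.67 ± 0.18 and -0.46 ± 0.20.

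Deadenylation and decapping genes were likewise near the shares of all genes, with 6 of 17 higher and 7 lower. The subunits CNOT3 and CNOT1 of the CCR4-NOT deadenylase were lower, with 2.55, 2.97 and 2.80 in AGO2-bound RNA, against 5.63, 5.43 and 5.06 in total RNA for CNOT3. They differed by -2.60 ± 0.16 and -1.42 ± 0.13, the mean of CNOT3 in AGO2-bound RNA being below the filter value. TOB2, an adaptor that recruits the deadenylase, was 2.87 ± 0.17 higher, with -0.78 for its other probe set, and TOB1 was 1.42 ± 0.16 higher.

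Immediate early genes, which cells switch on within minutes of a stimulus and whose messengers decay fast, were mostly higher in AGO2-bound RNA. Of 22 tested, 19 were higher and 2 lower, with a median of 2.49; single AGO2-bound arrays gave 2.01, 2.44 and 2.64. MYC, the growth-promoting transcription factor, read 12.72, 12.87 and 13.05 in AGO2-bound RNA, against 8.96 to 9.35 on the 3 arrays of total RNA, a difference of 3.77 ± 0.15 (SE, adjusted p = 2.0e-16). IER5 read 7.27, 7.42 and 7.71 in AGO2-bound RNA, against 3.59, 4.24 and 4.31 in total RNA, a difference of 3.42 ± 0.17 (SE, adjusted p = 8.3e-15). The MAP kinase phosphatase DUSP1 was 4.27 ± 0.22 higher, ZFP36, which binds AU-rich elements and hastens decay, 3.65 ± 0.20, GADD45A 3.35 ± 0.20, JUN 2.94 ± 0.20, JUNB 2.55 ± 0.24 and KLF6 2.60 ± 0.18.

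JUND (-1.05 ± 0.12) and BTG1 (-0.67 ± 0.12) were the 2 that were lower. A further 8 of the list were on the array below the filter. The list had a median of 2.12 after scramble, with 18 members higher and 1 lower, and a median of 1.45 after miR-205 when all probe sets of a gene were averaged. Its excess over scramble passed the test above 0 at 3 members and below 0 at 9, against 21.1% and 21.7% of all genes. GADD45A and IER5 were 1.35 and 1.28 higher in AGO2-bound RNA after scramble, against 3.35 ± 0.20 and 3.42 ± 0.17 after miR-205.

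Cell cycle genes went both ways, with 13 of 48 higher, 13 lower and a median of -0.06 (all genes 36.6% higher and 36.1% lower). CCNE2 and CCNA2, cyclins of S phase, were higher: CCNE2 read 8.03, 7.55 and 8.52 in AGO2-bound RNA, against 4.36, 4.59 and 4.84 in total RNA, a difference of 3.44 ± 0.37 (SE, adjusted p = 1.0e-08), and CCNA2 was 3.14 ± 0.35 higher. Thymidylate synthase (TYMS) was -2.03 ± 0.26, securin (PTTG1) -1.85 ± 0.31 and the helicase subunits MCM2 and MCM7 -1.49 ± 0.26 and -1.46 ± 0.28. Without AGO2-bound replicate 1 the number higher was 8. That array had the highest list median of the 3, at 0.32, against -0.21 and -0.18 for replicates 2 and 3.

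KRAB zinc finger genes encode DNA-binding repressors of a large family. They were higher in AGO2-bound RNA at 47 of 62 tested members and lower at 10 (all genes 36.6% higher and 36.1% lower). Their median difference was 1.27, and single AGO2-bound arrays gave 1.21, 1.28 and 1.40. ZNF184 read 8.15, 8.17 and 8.24 in AGO2-bound RNA, against 2.76, 3.25 and 3.36 in total RNA, a difference of 5.06 ± 0.18 (SE, adjusted p = 2.1e-17). ZNF571 read 7.73, 7.98 and 8.25 in AGO2-bound RNA, against 2.88, 3.02 and 3.40 in total RNA, a difference of 4.88 ± 0.17 (SE, adjusted p = 1.8e-17). ZNF180 read 7.20, 7.32 and 7.53 in AGO2-bound RNA, against 2.93, 3.17 and 3.04 in total RNA, a difference of 4.31 ± 0.15 (SE, adjusted p = 1.8e-17). In each of these 3 the total RNA arrays lay below 3.5 and the AGO2-bound arrays above 7.

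ZNF551 was measured well in both kinds of RNA, with 8.90, 8.85 and 8.78 in AGO2-bound RNA, against 5.21, 5.36 and 5.29 in total RNA, a difference of 3.55 ± 0.11 (SE, adjusted p = 4.4e-18). ZNF606 (4.24 ± 0.18), ZNF211 (4.08 ± 0.18), ZNF79 (3.89 ± 0.14), ZNF354A (3.44 ± 0.14), ZNF274 (3.31 ± 0.12), ZNF195 (3.23 ± 0.16) and ZNF83 (3.05 ± 0.18) were also at least 8-fold higher. At the other end, ZNF264 (-2.18 ± 0.17), ZKSCAN1 (-1.82 ± 0.20), ZNF587 (-1.76 ± 0.19) and ZNF611 (-1.49 ± 0.18) were lower. A further 25 members on the array lay below the filter, with differences between -0.86 and 2.94.

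Zinc finger genes have near-identical copies, and probe sets whose names carry an x or s can pair with several of them. Over the 33 KRAB members measured by probe sets without these marks, 26 were higher and 3 lower, with a median of 1.52. With the stricter filter, which leaves fewer genes tested, 28 members were higher, and over all genes 2098 were, against 2483. Without single arrays the number higher was 46 to 49, and the median 1.17 to 1.39.

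After scramble the same 62 genes had a median of -0.003, with 24 higher and 19 lower, and after miR-130a and miR-203 the medians were -0.05 and -0.26. The excess over scramble passed the test at 40 members above 0 and at 3 below 0, against 21.1% and 21.7% of all genes. Of the 47 members that were higher with miR-205, 11 were lower in AGO2-bound RNA after scramble. Over all genes this held for 298 of the 2483 that were higher. ZNF551 was among the 11 KRAB members: it was -0.55 after scramble, and its excess was 4.10 ± 0.16 (SE, adjusted p = 7.5e-16). ZNF184 was 0.39 after scramble, with an excess of 4.68 ± 0.25 (SE, adjusted p = 2.7e-13). Over all 158 tested genes with a ZNF symbol, 96 were higher after miR-205 and 29 lower, with a median of 0.81, against a median of 0.07 after scramble.

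Genes for the machinery of protein synthesis were mostly lower in AGO2-bound RNA. Of 31 initiation and elongation factor genes, 24 were lower and 3 higher, a median of -1.15. EIF3K, a subunit of the initiation factor eIF3, read 7.82, 7.56 and 7.28 in AGO2-bound RNA, against 10.25, 10.15 and 10.30 in total RNA, a difference of -2.68 ± 0.14 (SE, adjusted p = 1.1e-14), with -2.63 and -2.78 for its other probe sets. EIF4B, which assists the helicase of initiation, was -2.14 ± 0.14 and EIF3E -1.82 ± 0.11. The median was -1.16 to -1.01 without single arrays, and -0.79 with all probe sets averaged.

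Of 51 genes for cytosolic ribosomal proteins, 30 were lower and 10 higher, with a median of -0.63. RPS3 read 8.94, 8.54 and 8.10 in AGO2-bound RNA, against 11.71, 11.82 and 11.84 in total RNA, a difference of -3.26 ± 0.18 (SE, adjusted p = 7.4e-14). RPL32 and RPL29 were -2.61 ± 0.13 and -2.70 ± 0.14. Ribosomal protein genes have many processed pseudogenes: 10 members had a probe set without x or s, of which 5 were lower and 4 higher.

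Of 48 genes for mitochondrial ribosomal proteins, 29 were lower and 12 higher, with a median of -0.73. MRPS33 and MRPL48 were lower, at -2.69 ± 0.11 and -2.10 ± 0.13. MRPL15 went against the list, with 11.73, 11.83 and 11.45 in AGO2-bound RNA, against 8.09, 8.15 and 8.01 in total RNA, a difference of 3.59 ± 0.15 (SE, adjusted p = 5.2e-16). It was 1.14 after scramble, an excess of 2.44 ± 0.22 (SE, adjusted p = 1.8e-09).

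Oxidative phosphorylation genes were lower at 43 of 62 members and higher at 16, with a median of -1.03. The complex I subunits NDUFA6 and NDUFB6 were -2.04 ± 0.11 and -1.91 ± 0.11, with 7.29, 7.23 and 7.06 in AGO2-bound RNA, against 9.23, 9.22 and 9.25 in total RNA for NDUFA6. ATP5MC2, which encodes a ring subunit of ATP synthase, was higher, at 12.22, 11.94 and 11.83 in AGO2-bound RNA, against 9.98, 10.00 and 10.03 in total RNA, a difference of 1.99 ± 0.12 (SE, adjusted p = 1.7e-13). After scramble 50 members were lower and 6 higher.

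Proteasome genes were lower at 18 of 29 members and higher at 9, with a median of -0.96. PSMA1, a subunit of the core, and PSMC3, an ATPase of the cap, were -2.39 ± 0.13 and -2.52 ± 0.16. Another cap ATPase, PSMC2, was higher, with 10.95, 11.13 and 10.99 in AGO2-bound RNA, against 9.30, 9.43 and 9.28 in total RNA, a difference of 1.69 ± 0.10 (SE, adjusted p = 4.9e-13); its other probe set gave 0.38. After scramble 26 members were lower and 1 higher, and 8 members that were higher after miR-205 were lower after scramble, as were 298 of all 6782 genes.

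Glycolysis genes were lower at 13 of 17 members, with a median of -0.80. GAPDH read 10.49, 10.28 and 9.91 in AGO2-bound RNA, against 12.55, 12.37 and 12.39 in total RNA, a difference of -2.21 ± 0.14 (SE, adjusted p = 7.4e-13), with -2.33 and -2.12 for its other probe sets. No member was at least 2-fold higher, and the 1 that was called higher, aldolase A (ALDOA, 0.30 ± 0.13), lost its call without AGO2-bound replicate 1 or any of the total RNA arrays.

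Spliceosome genes were lower at 18 of 37 members and higher at 6, with a median of -0.34 (all genes 36.1% lower and 36.6% higher). SF3B5 was -2.03 ± 0.14 and SNRNP40, a protein of the U5 particle, 2.68 ± 0.14. SRSF10, a splicing regulator, was 3.75 ± 0.19 on the probe set used, with 1.60, -0.99 and 0.12 on the others.

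**Figure D3:**
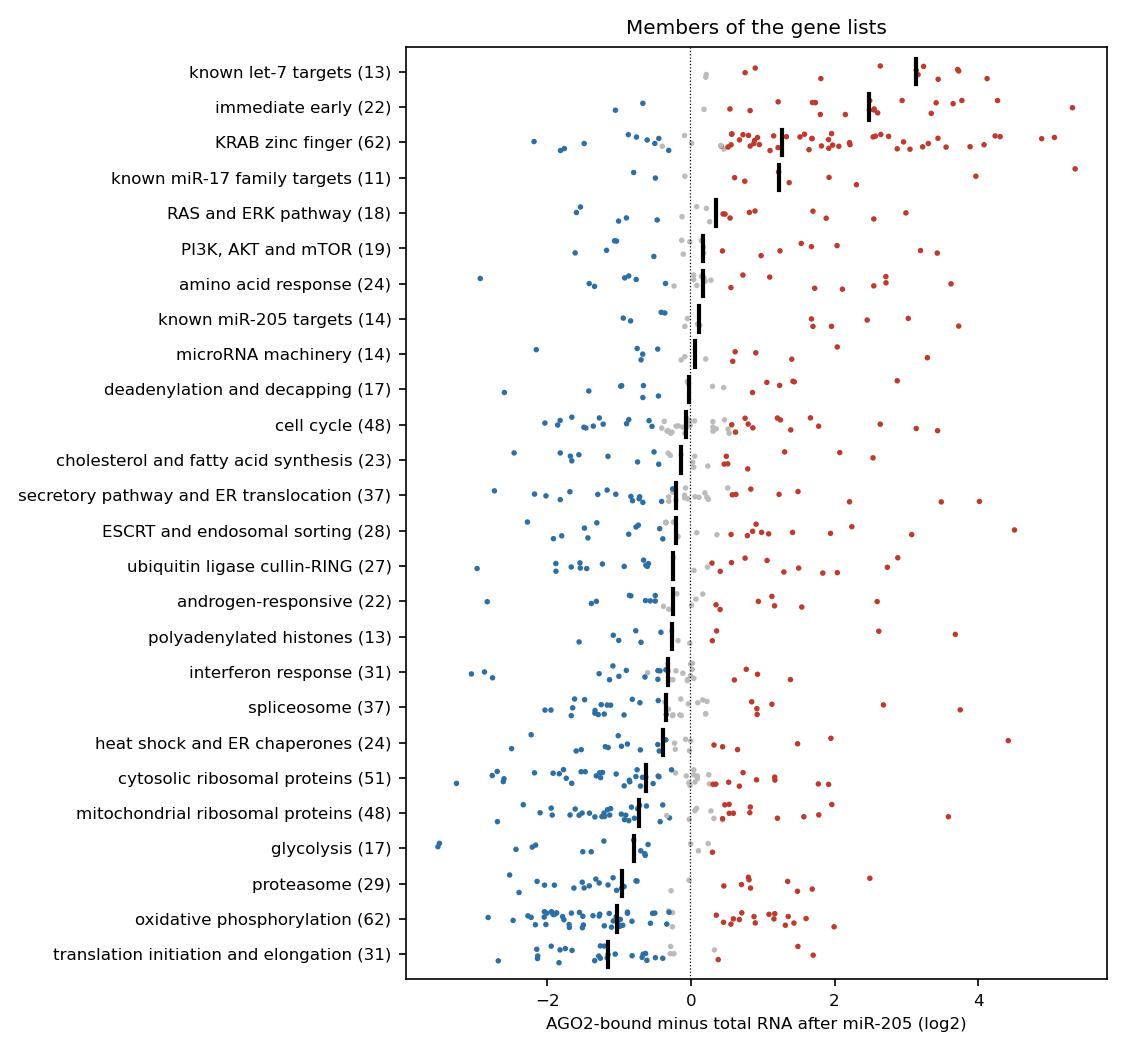
Each point is the difference of a gene between AGO2-bound and total RNA after miR-205 (log2, horizontal axis), by gene list, with the number of tested members in brackets; red and blue mark genes called higher and lower, grey the rest, the black bars are list medians and the dotted line is the median of all genes, -0.009. Medians run between 3.14 for the let-7 targets and -1.15 for translation factors.

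Signalling genes went both ways, as did all genes (36.6% higher and 36.1% lower). Of 18 RAS and ERK pathway genes, 9 were higher and 5 lower, with a median of 0.36. HRAS, a small GTPase, read 9.20, 9.32 and 8.78 in AGO2-bound RNA, against 6.10, 6.04 and 6.19 in total RNA, a difference of 2.99 ± 0.14 (SE, adjusted p = 1.7e-15). It was -1.79 after scramble, so that the excess was 4.78 ± 0.19 (SE, adjusted p = 1.5e-15). SPRED2, an inhibitor of the pathway, was 2.55 ± 0.17 higher after miR-205 and 2.09 after scramble. At the other end of the list, the lowest difference was -1.59.

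Of 19 PI3K, AKT and mTOR genes, 8 were higher and 5 lower, with a median of 0.18. MLST8, a subunit of both mTOR complexes, read 9.67, 9.71 and 9.17 in AGO2-bound RNA, against 5.91, 6.27 and 6.08 in total RNA, a difference of 3.43 ± 0.15 (SE, adjusted p = 9.7e-16). After scramble it was -1.62, and the excess was 5.05 ± 0.22 (SE, adjusted p = 3.2e-15). EIF4EBP1, the repressor of cap-dependent translation that mTOR phosphorylates, read 10.33, 10.01 and 9.54 in AGO2-bound RNA, against 6.71, 6.81 and 6.76 in total RNA, a difference of 3.20 ± 0.18 (SE, adjusted p = 8.0e-14), with an excess over scramble of 3.20 ± 0.25 (SE, adjusted p = 2.5e-10). RPS6KB1, a kinase downstream of mTOR, was 2.04 ± 0.15 after miR-205 and 2.16 after scramble.

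In the secretory pathway 8 of 37 genes were higher and 15 lower, with a median of -0.21 (all genes 36.6% higher and 36.1% lower). TRAM1, which assists the entry of proteins into the endoplasmic reticulum, read 10.85, 10.77 and 10.96 in AGO2-bound RNA, against 6.63, 7.04 and 6.85 in total RNA, a difference of 4.02 ± 0.12 (SE, adjusted p = 1.2e-18); its other probe sets gave 0.59 and 1.17. STT3A and RPN2, subunits of the oligosaccharyltransferase, were 3.49 ± 0.15 and 2.21 ± 0.11 higher. The lowest difference in the list was -2.7. Heat shock and ER chaperone genes were lower at 13 of 24 members and higher at 6, with a median of -0.39. PDIA3 and HSPA4 were -2.50 ± 0.14 and -2.22 ± 0.14, whereas DNAJB9, a co-chaperone of the endoplasmic reticulum, was 4.42 ± 0.16 higher, with 4.94 for its other probe set.

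Amino acid response genes were higher at 9 of 24 members and lower at 7, near the 36.6% higher and 36.1% lower of all genes. SHMT2 and PSPH, enzymes of serine and glycine synthesis, were 2.55 ± 0.14 and 2.72 ± 0.16 higher, and CHAC1, which degrades glutathione, 3.62 ± 0.22. The other probe set of PSPH gave 0.55. SHMT2 read 11.50, 11.42 and 10.95 in AGO2-bound RNA, against 8.74, 8.80 and 8.70 in total RNA. After scramble SHMT2 was 0.18 and PSPH 0.39, against 4.05 for CHAC1.

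Androgen-responsive genes were higher at 7 of 22 members and lower at 9, again near the shares of all genes. KLK3 was 1.17 ± 0.14 higher and PMEPA1, an androgen-induced inhibitor of TGF-beta signalling, 2.59 ± 0.19 higher. FKBP5, an immunophilin, read 2.69, 3.02 and 2.72 in AGO2-bound RNA, against 5.71, 5.79 and 5.43 in total RNA, a difference of -2.84 ± 0.12 (SE, adjusted p = 4.2e-16), with an AGO2-bound mean below the filter value. Genes for the synthesis of cholesterol and fatty acids were also near those shares, higher at 7 of 23 members and lower at 9, with fatty acid synthase (FASN) at -2.46 ± 0.18, ACACA at -1.82 ± 0.13 and HSD17B7 at -1.15 ± 0.11. The number of these that were higher was 4 without AGO2-bound replicate 2 or total RNA replicate 1.

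The difference after miR-205 was set beside the same difference after scramble, whose arrays share the normalization run. After scramble 2378 genes were higher in AGO2-bound RNA (35.1%) and 2565 lower (37.8%). Higher after both were 1715 genes, 69.1% of those higher after miR-205 and 72.1% of those higher after scramble. Lower after both were 1804 genes, 73.8% and 70.3% of the lists. In opposite directions were 455 genes, 298 of them higher after miR-205 and lower after scramble. Across the 6782 genes, which are not independent, the 2 differences correlated at r = 0.719. The difference after miR-205 correlated at 0.681 with that after miR-130a and at 0.592 with that after miR-203. Among the other transfections, scramble correlated at 0.787 with miR-130a and at 0.679 with miR-203, and miR-130a at 0.628 with miR-203. Each transfection has its own AGO2-bound arrays, so an effect of miR-205 cannot be told apart from one of its set of arrays.

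**Figure D4:**
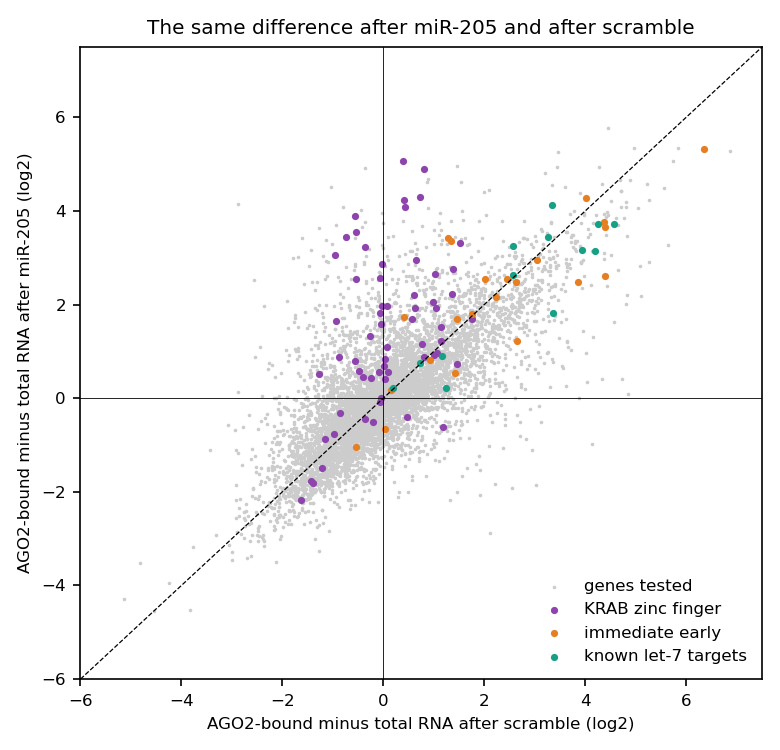
The difference between AGO2-bound and total RNA (log2) after miR-205, on the vertical axis, against the same difference after scramble, on the horizontal axis, with the dashed line where both are equal. Most KRAB zinc finger genes lie above the line, with medians of 1.27 after miR-205 and -0.003 after scramble. Medians of let-7 targets and immediate early genes were 3.14 and 2.49 after miR-205, and 3.26 and 2.12 after scramble. Members of both lists also lie off the line. The excess over scramble passed the test above 0 at 2 of 13 let-7 targets and below 0 at 5. Among 22 immediate early genes these counts were 3 and 9, against 21.1% and 21.7% of all genes.

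The excess over the mean of scramble, miR-130a and miR-203 passed the test above 0 at 1585 genes (23.4%) and below 0 at 1713 (25.3%). Of the 6 largest above 0, RPA3, a subunit of the protein that coats single-stranded DNA, was 4.15 ± 0.19 higher in the AGO2-bound fraction with miR-205. It read 11.88, 11.68 and 11.23 in AGO2-bound RNA, against 7.17, 7.68 and 7.50 in total RNA. After miR-130a, miR-203 and scramble it was lower, at -2.93, -2.51 and -2.88. VPS16, a subunit of the complexes that tether endosomes and lysosomes, read 8.62, 8.86 and 8.39 in AGO2-bound RNA, against 3.81, 4.26 and 4.29 in total RNA after miR-205, a difference of 4.51 ± 0.15 (SE, adjusted p = 5.6e-18), and was -0.56, -0.68 and -1.03 after the other 3.

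SCAND1, a SCAN domain protein, and IFT27, a small GTPase of ciliary transport, showed the same reversal. They were 2.53 ± 0.18 and 3.64 ± 0.15 after miR-205, and between -2.62 and -2.31 and between -1.59 and -1.03 after the others. SLC25A1, the citrate carrier of mitochondria, read 10.34, 10.32 and 9.70 in AGO2-bound RNA, against 5.13, 5.45 and 5.06 in total RNA after miR-205, a difference of 4.91 ± 0.21 (SE, adjusted p = 3.9e-16), against -0.37 after scramble. ZNF184 was the other of the 6.

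The genes with the largest excess below 0 were each higher in AGO2-bound RNA after another transfection. TRIP4, a transcription coactivator, was -0.99 ± 0.18 after miR-205 and 4.14 after scramble, with 4.30, 3.95 and 3.89 in AGO2-bound RNA, against 5.15, 4.79 and 5.16 in total RNA after miR-205. TAF10, a subunit of TFIID, was -1.40 ± 0.17 after miR-205 and 1.84 after scramble, and NUBP1, an iron-sulfur cluster assembly factor, 0.41 ± 0.14 and 4.33. The NUBP1 difference after miR-205 was not called once arrays were centred (0.24, adjusted p = 0.11). COX6A1, a cytochrome oxidase subunit, was -0.88 ± 0.14 after miR-205 and 4.75 after miR-203. GTF2H5 and NTAN1 were -2.95 ± 0.17 and -2.04 ± 0.23 after miR-205, and 3.33 and 2.49 after miR-203.

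Cyclin G1 (CCNG1), the sorting nexin SNX7 and the interferon-inducible IFI6 were lower in the AGO2-bound fraction after miR-205, at -1.86 ± 0.13, -1.91 ± 0.19 and -2.87 ± 0.40. They were higher in it after scramble, at 3.02, 2.55 and 2.12, and lower after miR-130a and miR-203. IFI6 was the least steady of them, with 4.43, 4.15 and 3.07 in AGO2-bound RNA, against 6.60, 6.82 and 6.85 in total RNA after miR-205.

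**Figure D5:**
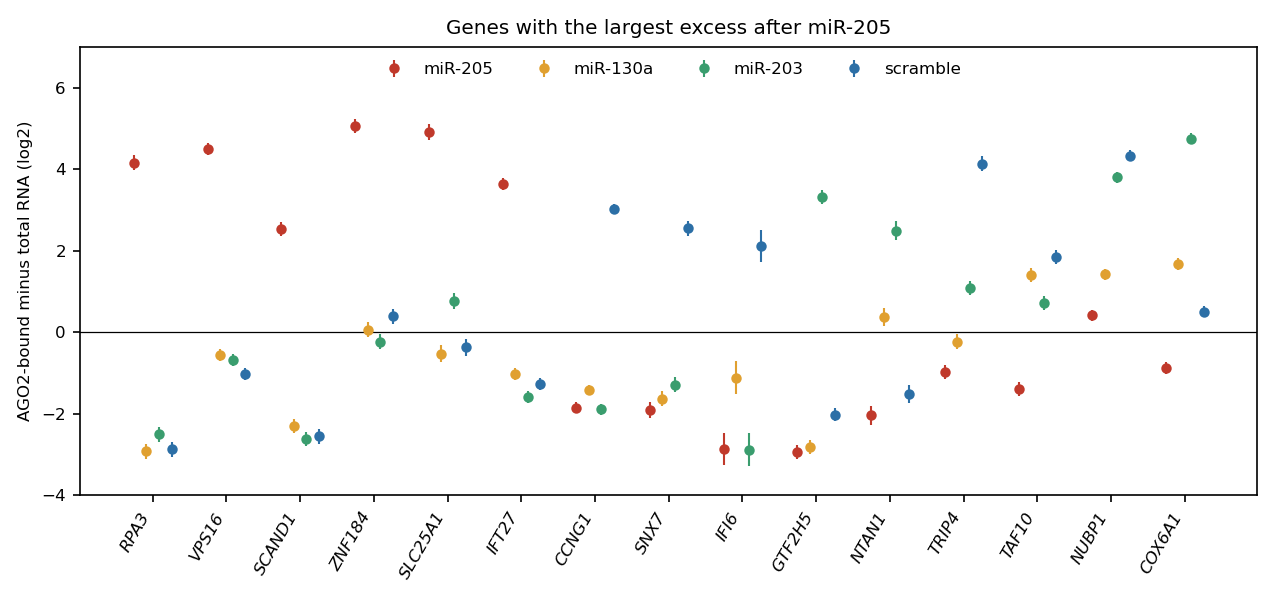
The difference between AGO2-bound and total RNA (log2, vertical axis; points with limma SE, 3 arrays against 3) after miR-205, miR-130a, miR-203 and scramble for the 15 genes with the largest excess after miR-205 in either direction, ordered by the excess over the mean of the other 3 transfections. RPA3, VPS16, SCAND1 and IFT27 lie above 0 after miR-205 and below 0 after each other transfection.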

How the data were processed

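RNA from LNCaP cells was measured on 24 Affymetrix arrays of human genes, 3 for each of 2 kinds of RNA and 4 transfections, and 6 of them are described here. The deposited values are log2 levels of 22277 probe sets, already background-corrected and scaled between arrays by the authors. GCRMA, RMA and R 2.9.0 are named in the submitters' processing notes without their roles, and the lowest values fall into 3 sets, taken as 3 normalization runs. Array values carry no counts, and precision is limited by how many arrays there are.

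Probe sets with 1 gene symbol (19064) gave 11963 genes; probe sets with several (1043) or none (2108) and 62 controls were left out. Each gene was represented by its brightest probe set, averaged over the 24 arrays, and 6782 genes with a mean of at least the median of all probe sets, 2.85, were tested. limma 3.58.1 in R 4.3.3 was fitted to all 24 arrays in 8 groups, without covariates and without a block, with Benjamini-Hochberg adjustment over all tested genes and a threshold of 0.05. The same fit gave the excess over scramble and over the mean of the other 3 transfections. Every printed adjusted p comes from such a fit of 3 arrays a group, except where a left-out array or another alternative is named with it. The fit was tested on simulated data.

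Genes were named by rule: the 10 largest differences each way with both kinds of RNA measured and not overlapping, up to 5 bounds each way, the 3 smallest p-values each way, up to 3 called members of each list by p, the called miR-205 targets, and the largest excesses (4 each way over scramble, 6 each way over the mean of the others). Further list members, and other probe sets, were named after their values were seen. The members and lists were chosen with earlier results of these data known. Alternatives were the filter, the probe set, the scaling, the arrays fitted, the variance model, the threshold and leaving out each array. Another took same-numbered AGO2-bound and total RNA arrays of a transfection as a block. Protein length, zinc finger motifs and seed matches in transcripts were not analysed here.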

Additional observations from a re-analysis of the deposited data

Results flagged for a closer look

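The difference between AGO2-bound and total RNA after miR-205 was set against the same difference after other transfections with a test of the difference itself, by limma. Over scramble, 1430 genes had an excess above 0 and 1470 below 0, and over the mean of the other 3 transfections the counts were 1585 and 1713.

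The genes given here were chosen for their excess, or for calls in opposite directions after miR-205 and scramble, so their values are a description. Above 0, examples of the log2 excess over scramble were RPA3 7.04, VPS16 5.54, SLC25A1 5.28, SCAND1 5.09, MLST8 5.05, IFT27 4.92, HRAS 4.78, ZNF184 4.68, TRAM1 4.46 and ZNF551 4.10. Examples below 0 were TRIP4 (-5.12), IFI6 (-4.99), CCNG1 (-4.88), SNX7 (-4.47), NUBP1 (-3.91), TAF10 (-3.24), MED1 (-2.47), COX6A1 (-1.39) and GTF2H5 (-0.93). NTAN1 had an excess of -2.49 over the mean of the other 3 transfections.

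The total RNA scramble replicate 1 array, which enters each excess over scramble, had a mean of 4.33 over the 18S ribosomal RNA probe sets, against 2.83 and 3.05 on the other 2 arrays of its group. Its part in these excesses was not tested beyond leaving it out, which gave 1324 genes above 0 and 1406 below 0.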

How the results depend on the processing

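Of the counts of genes, those at a threshold of at least 2-fold moved by over 1.5 times: 1461 higher and 1180 lower for AGO2-bound against total RNA after miR-205, 799 and 581 for the excess over scramble, and 730 and 470 for the excess over the mean of the other 3 transfections. Leaving out single arrays gave 2362 to 2422 higher and 2295 to 2390 lower, 1252 to 1463 and 1242 to 1492 over scramble, and 1418 to 1599 and 1482 to 1733 over the other 3. Over all alternatives other than the 2-fold threshold, the counts after miR-205 were 2098 to 2560 higher and 2132 to 2942 lower. Centring each array on its median gave the lowest share of calls on the higher side, 42.5%, against 50.4%. A block joined each AGO2-bound array with the same-numbered total RNA array of its transfection. With it, 2472 genes were higher and 2422 lower, with 1388 and 1427 over scramble and 1563 and 1672 over the other 3. The deviations of same-numbered AGO2-bound and total RNA arrays after miR-205 correlated at -0.11, 0.11 and 0.19, and not every array correlated best with its own number, so the numbers were not taken as pairs. Across transfections, same-numbered arrays of miR-205 and scramble correlated at 0.52, -0.04 and 0.32 for AGO2-bound RNA, and at -0.05, 0.05 and -0.10 for total RNA, and in each of the 4 AGO2-bound groups replicate 3 had the highest poly(A) spike mean. What same-numbered AGO2-bound arrays share across transfections was not tested, and the block, set within each transfection, did not cover it. Among the named genes and list members, 1 of the values after miR-205 reversed: ZKSCAN5 gave 0.049 (adjusted p = 0.63, limma) with all its probe sets averaged, against -0.31. MED1 lost its call under 9 alternatives (-0.08 to -0.39, adjusted p = 0.051 to 0.56) and OAS1 under 7. Of the known miR-205 targets, 2 were lower instead of 4 without AGO2-bound replicate 1 or 2 or total RNA replicate 1. On each of the 6 arrays 40.1% to 41.0% of probe sets lay within 0.05 of the lowest value, where a difference has no size; of the tested genes, 11 lay there on all AGO2-bound arrays and 17 on all total RNA arrays.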

Other observations

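Interferon response genes were lower in AGO2-bound RNA after miR-205 at 13 of 31 members and higher at 4, with a median of -0.32 (all genes 36.1% lower and 36.6% higher, median -0.009). Their medians after scramble, miR-130a and miR-203 were -0.05, -0.90 and -1.56. The excess over the mean of the other 3 transfections passed the test above 0 at 15 members and below 0 at 3, against 23.4% and 25.3% of all genes. ISG15, a ubiquitin-like protein, read 5.87, 5.64 and 5.17 in AGO2-bound RNA, against 8.64, 8.51 and 8.71 in total RNA, a difference of -3.06 ± 0.18. IFIT1, which binds foreign RNA, differed by -2.76 ± 0.24, and IRF9, a transcription factor of the response, was 1.39 ± 0.34 higher. Histone genes with polyadenylated transcripts were split, with 4 of 13 higher and 6 lower. H2BC9 and H2BC12, which encode forms of histone H2B, were 3.68 ± 0.15 and 2.62 ± 0.11 higher, with 9.30, 9.48 and 9.96 in AGO2-bound RNA, against 5.97, 5.89 and 5.84 in total RNA for H2BC9. H4C8, a gene for histone H4, was lower, at -1.56 ± 0.16. Without AGO2-bound replicate 2, or total RNA replicate 1 or 3, 2 histone genes were higher.

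Subunits of cullin-RING ubiquitin ligases went both ways, with 11 of 27 higher and 13 lower (all genes 36.6% higher and 36.1% lower). The substrate receptors FBXW11, SKP2 and FBXW7 were higher, at 2.88 ± 0.12, 2.74 ± 0.27 and 2.04 ± 0.17, although the other probe set of FBXW11 gave -0.68. The core subunits ELOB, RBX1 and CUL3 were lower, at -2.98 ± 0.19, -1.88 ± 0.12 and -1.67 ± 0.12. Endosomal sorting genes were higher at 11 of 28 members and lower at 12, near the shares of all genes. SNX5 was 2.24 ± 0.13 higher and SNX3 -2.28 ± 0.19. The ESCRT subunit CHMP2B was 3.08 ± 0.19 higher, with 0.53 and 0.81 for its other probe sets. Of 91 tested genes of non-coding biotype 19 were higher and 33 lower, against 36.6% and 36.1% of all genes. The share lower was thus near that of all genes. Their median of -0.12 was within the shift that centring the arrays makes. TUG1 and DLEU1 were among those lower, at -1.79 ± 0.12 and -1.33 ± 0.14. The length of a gene in the genome went with little of the difference: from the fifth of genes with the shortest span to that with the longest, the median differences after miR-205 were -0.05, -0.04, 0.03, 0.02 and -0.02.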
